A study of Mus musculus with 9 samples.

Results

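The vesicular glutamate transporters of the mouse are encoded by 3 genes, Slc17a6 (VGLUT2), Slc17a7 (VGLUT1) and Slc17a8 (VGLUT3). All 3 were found by symbol among the 23038 genes measured in each table. They were followed across 9 bulk RNA-seq samples of fluorescent sensory neurons, sorted from dissociated dorsal root ganglia of neonatal mice of both sexes on a mixed C57/Sv129 background, with 3 samples in each of 3 groups. The mutant PV group (Rx3-/-;PV:tdT in the labels) lacked functional Runx3 in all cells and carried Cre under parvalbumin (PV) control with a Cre-dependent tdTomato reporter. Its samples were taken on postnatal days 3, 0 and 0 and held 1, 1 and 4 animals, and they are labelled as rapidly adapting low-threshold mechanoreceptors (RA-LTMRs), because proprioceptors do not survive without Runx3. The wild-type PV group (Rx3+/+;PV:tdT) carried the same Cre and reporter with intact Runx3, was taken on postnatal days 6, 4 and 3 from 4, 3 and 3 animals, and is labelled as proprioceptors and RA-LTMRs. The TrkC:GFP group came from mice with a bacterial artificial chromosome that drives GFP under TrkC control, was taken on postnatal days 6, 2 and 1 from 4, 2 and 4 animals, and is labelled as proprioceptors and slowly adapting mechanoreceptors (SA-LTMRs). The reporter is called Ai14 in the genotype labels and Ai9 in the study's design text, 2 lines that express the same tdTomato. The comparisons ask how these mechanoreceptor populations differ.

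Vesicular glutamate transporters load glutamate into synaptic vesicles, using the electrical gradient set up by the vesicle's proton pump, and a neuron without one does not release glutamate from vesicles. In dorsal root ganglia VGLUT2 is widespread, VGLUT1 is known from large myelinated neurons such as proprioceptors and low-threshold mechanoreceptors, and VGLUT3 is known from C-fibre low-threshold mechanoreceptors (C-LTMRs) and, transiently in development, from other sensory neurons. The 3 proteins carry out the same transport step and differ mainly in where they are made.

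On mm10, whose primary assembly is that of RefSeq's GRCm38.p6, Slc17a6 and Slc17a7 lie on the same chromosome and strand. Slc17a7 spans chr7:45163921-45176139 on the plus strand, Slc17a6 spans chr7:51621830-51671126 on the plus strand, and Slc17a8 spans chr10:89574020-89621249 on the minus strand. The 250 bases before 1 annotated start of each gene, at the upstream end of its span, are shown from RefSeq's GRCm38.p6. They are shown because the mutated gene encodes a transcription factor of the RUNX family. Slc17a6 and Slc17a8 have 2 listed starts each, and their other start was not searched. Capitals mark matches to TGNGGT, searched on both strands (ACCNCA on the other). This is a loose form of the RUNX core motif, with any base at N, where the usual core has T or C. Slc17a7 holds 1 match, which begins 186 bases before the start and has G at N, so it fits only the loose form. Slc17a6 and Slc17a8 hold none in these windows. Of 32851 such windows in the RefSeq promoter table, 40.1% hold at least 1 match, so a match is common, and it is given as a description of the sequence only.
Slc17a7, chr7:45163671-45163920, plus strand: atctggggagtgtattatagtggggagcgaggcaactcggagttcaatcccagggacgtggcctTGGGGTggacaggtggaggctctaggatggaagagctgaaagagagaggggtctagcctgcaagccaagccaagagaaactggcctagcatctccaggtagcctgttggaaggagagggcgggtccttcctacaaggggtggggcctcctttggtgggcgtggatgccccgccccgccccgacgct
Slc17a6, chr7:51621580-51621829, plus strand: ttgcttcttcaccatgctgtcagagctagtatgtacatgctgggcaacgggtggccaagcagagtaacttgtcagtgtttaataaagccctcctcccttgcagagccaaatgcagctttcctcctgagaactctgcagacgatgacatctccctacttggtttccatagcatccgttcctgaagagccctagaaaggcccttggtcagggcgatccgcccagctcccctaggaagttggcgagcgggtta
Slc17a8, chr10:89621250-89621499, minus strand: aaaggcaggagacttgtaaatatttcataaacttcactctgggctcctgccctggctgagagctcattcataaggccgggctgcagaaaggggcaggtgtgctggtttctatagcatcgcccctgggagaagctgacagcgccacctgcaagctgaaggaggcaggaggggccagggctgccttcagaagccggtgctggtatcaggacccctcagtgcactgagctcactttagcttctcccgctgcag

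The authors deposited RPKM, which scales reads to transcript length and library size, as 1 value per gene and group. Whole reads per library were recovered from the digits of those values, with totals of 4.5 to 12.8 M counted reads in mutant PV, 11.6 to 13.7 M in wild-type PV and 7.8 to 12.2 M in TrkC:GFP libraries. Libraries can be told apart by depth but not tied to an age or replicate number, and they are given below from deepest to shallowest. Runx3 itself had 52.1, 69.5 and 47.2 CPM (reads scaled to library size) in mutant PV, 145, 126 and 110 CPM in wild-type PV, and 134, 143 and 147 CPM in TrkC:GFP libraries. Its RNA was lower in every mutant PV library but not at 0, and the position of the mutation within the counted transcript was not analysed here. Of 6 RA-LTMR markers, 5 were higher in mutant than in wild-type PV neurons by the authors' deposited adjusted p, where 16.4% of all genes were called. Of 6 proprioceptor markers all 6 were lower. These 6 include Runx3, the mutated gene, and Pvalb (parvalbumin), whose control drives the Cre used for sorting, so they are not independent of the design. Of 7 nociceptor markers, 4 were higher and 2 lower in mutant than in wild-type PV neurons, against the same share of all genes. In mutant PV libraries the 7 summed to 911 to 1230 CPM, against 156 to 291 CPM in wild-type PV and 119 to 285 CPM in TrkC:GFP libraries. Most of the sum in mutant PV libraries was 1 gene, P2rx3, at 994, 790 and 785 CPM, against 187, 61.1 and 160 CPM in wild-type PV libraries. The 2 lower markers were Tac1 and Trpv1. Trpv1 had no read in mutant PV libraries and only 6, 5 and 4 reads in wild-type PV libraries. The deepest and middle mutant PV libraries held 62 and 67 reads of the kidney gene Umod, which had no read in the other 7 libraries. The 4 endothelial markers summed to 15.5, 23.4 and 6.87 CPM in mutant PV libraries. Their sums were 3.29 to 5.27 CPM in wild-type PV and 3.23 to 8.1 CPM in TrkC:GFP libraries.

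Slc17a6 was the highest of the 3 genes per length in each of the 9 libraries and did not differ between the groups beyond their spread. It had 103, 123 and 128 RPKM in mutant PV, 112, 111 and 108 RPKM in wild-type PV, and 123, 93.3 and 118 RPKM in TrkC:GFP libraries. The ranges of the 3 groups overlap throughout. The means were 118 ± 12.8 RPKM in mutant PV, 110 ± 2.27 RPKM in wild-type PV and 111 ± 15.8 RPKM in TrkC:GFP neurons (SD, n = 3 each). These levels placed Slc17a6 at the 98.6th percentile of all genes in mutant PV, the 98.3rd in wild-type PV and the 98.4th in TrkC:GFP neurons. In the authors' deposited table (edgeR, Benjamini-Hochberg adjusted over 23038 genes) the log2 fold change of wild-type PV over mutant PV was -0.10 with an adjusted p of 0.953. The authors' deposited log2 fold change of TrkC:GFP over mutant PV was -0.08 and that of wild-type PV over TrkC:GFP was -0.01, with an adjusted p of 1 for both. Reads of Slc17a6 numbered 2485 to 6646 per library. With limma on the recovered reads the 95% intervals ran from -0.37 to 0.19 on the log2 scale for wild-type PV minus mutant PV, from -0.37 to 0.19 for TrkC:GFP minus mutant PV, and from -0.28 to 0.28 for wild-type PV minus TrkC:GFP.

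Slc17a7 was lower in mutant PV neurons than in both other groups. It had 37.2, 26.3 and 30.0 RPKM in mutant PV, 60.5, 70.3 and 72.7 RPKM in wild-type PV, and 43.3, 78.0 and 41.0 RPKM in TrkC:GFP libraries. All mutant PV libraries lay below all libraries of the other groups (in CPM, the libraries of mutant and wild-type PV did not overlap for 42.2% of 13951 genes, and those of mutant PV and TrkC:GFP for 33.8%), and within TrkC:GFP the middle library stood well above its 2 companions. The means were 31.2 ± 5.55 RPKM in mutant PV, 67.8 ± 6.46 RPKM in wild-type PV and 54.1 ± 20.7 RPKM in TrkC:GFP neurons (SD, n = 3 each). Reads behind these values numbered 433 to 1529 per mutant PV library, 2659 to 2731 per wild-type PV library and 1021 to 2628 per TrkC:GFP library. The gene's rank among 23038 genes was 1781 in mutant PV, 771 in wild-type PV and 1002 in TrkC:GFP neurons.

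Slc17a7 fell in mutant PV neurons relative to wild-type PV neurons. In the authors' deposited table the log2 fold change of wild-type PV over mutant PV was 1.12, a fold of 2.17, with an edgeR adjusted p of 7.36e-08, and the authors flagged the gene, as they did 6.52% of all genes there. It was the only one of the 3 genes past an adjusted p of 0.05 in that comparison, where 16.4% of all genes were called. With limma on the recovered reads the difference was 1.13 ± 0.22 (SE) on the log2 scale, with a 95% interval of 0.65 to 1.60 and an adjusted p of 0.0026, where limma called 26.2% of 13951 genes. The limma adjusted p remained at or below 0.014 when any 1 of the 9 libraries was left out. The mutant PV samples were younger, at postnatal days 0 to 3 against 3 to 6 for wild-type PV. They are labelled as RA-LTMRs alone, and wild-type PV as proprioceptors and RA-LTMRs. Age, genotype and labelled cell types cannot be told apart. Because these are bulk samples, fewer cells with the transcript and less transcript per cell cannot be told apart either. The summed nociceptor markers, mostly P2rx3 in mutant PV, and the summed RA-LTMR markers were higher in mutant PV libraries. The summed proprioceptor markers, Runx3 among them, were lower there. The part of cell makeup in the Slc17a7 difference was not tested.

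Slc17a7 also fell in mutant PV neurons relative to TrkC:GFP neurons in the authors' deposited table, a call that several alternatives ended. Age, Runx3 genotype, reporter and labelled cell types all differ between these groups and cannot be told apart. In the authors' deposited table the log2 fold change of TrkC:GFP over mutant PV was 0.79, a fold of 1.73, with an edgeR adjusted p of 0.0281. The authors' deposited table called 2 of the 3 transporter genes in this comparison and 10.1% of all genes. Neither carried the authors' flag, which 4.86% of all genes did. With limma the difference was 0.74 ± 0.22 (SE), with a 95% interval of 0.27 to 1.22 and an adjusted p of 0.028, where limma called 21.8% of genes. Without the middle TrkC:GFP library it was 0.45 with a limma adjusted p of 0.079. The call was also lost without the middle mutant PV library (0.63, limma adjusted p 0.088), without the shallowest mutant PV library (0.72, limma adjusted p 0.059) and with median-of-ratios scaling (0.65, limma adjusted p 0.064). Leaving out both deeper mutant PV libraries, those with kidney reads, gave 0.78 with a limma adjusted p of 0.10 against TrkC:GFP, and 1.17 with a limma adjusted p of 0.028 against wild-type PV. These fits keep 1 mutant PV library and assume that it varies like the libraries of the other groups.

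Between the groups with intact Runx3, Slc17a7 was not called. The authors' deposited log2 fold change of wild-type PV over TrkC:GFP was 0.33 with an edgeR adjusted p of 0.603, and the limma interval ran from -0.09 to 0.86. The order of levels was thus wild-type PV, TrkC:GFP and mutant PV, with the first 2 not separated beyond their spread. With TrkC:GFP joined with wild-type PV over mutant PV in the authors' deposited table, the log2 fold change was 0.97 with an edgeR adjusted p of 2.3e-04, and 16.8% of all genes were called. That joined comparison shares its mutant PV samples with the pairwise ones.

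**Figure D1:**
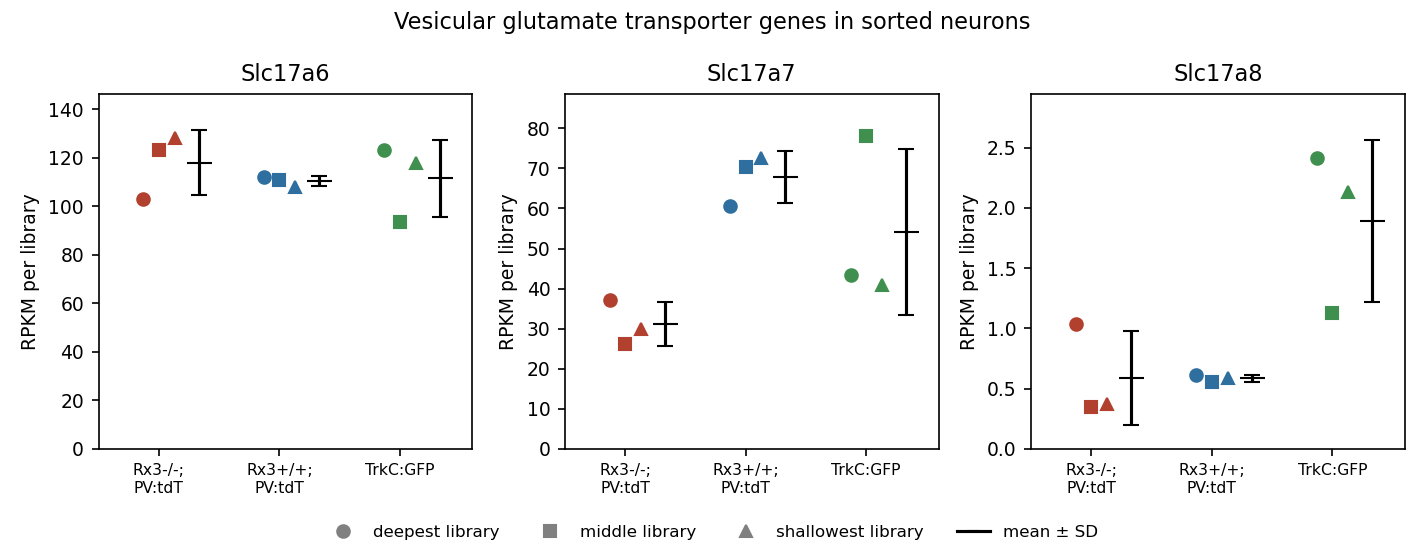
RPKM per library (vertical axes, linear, from 0) of Slc17a6, Slc17a7 and Slc17a8 in mutant PV, wild-type PV and TrkC:GFP neurons, with 3 libraries per group drawn by depth rank and the mean ± SD beside them. Slc17a6 overlaps in all groups, Slc17a7 is lowest in mutant PV libraries (26.3 to 37.2 RPKM), and Slc17a8 is highest in TrkC:GFP libraries (1.13 to 2.41 RPKM).

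VGLUT1 transcript made up a smaller part of the total in mutant PV neurons than in wild-type PV neurons. Slc17a7 made up 26.3%, 17.6% and 19.0% of the summed RPKM of the 3 genes in mutant PV libraries, 35.0%, 38.6% and 40.2% in wild-type PV libraries, and 25.7%, 45.2% and 25.5% in TrkC:GFP libraries. Every mutant PV library had a smaller share than every wild-type PV library, while 2 of the 3 TrkC:GFP libraries fell just below the highest mutant PV share. The RPKM of Slc17a6 over that of Slc17a7 averaged 3.90 ± 0.996 in mutant PV, 1.64 ± 0.191 in wild-type PV and 2.30 ± 0.956 in TrkC:GFP libraries (SD, n = 3 each). The summed RPKM of the 3 genes averaged 150 ± 8.16 in mutant PV, 179 ± 4.85 in wild-type PV and 167 ± 5.98 in TrkC:GFP libraries (SD, n = 3 each). These sums and shares are descriptions built from the same reads as the levels of single genes.

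**Figure D2:**
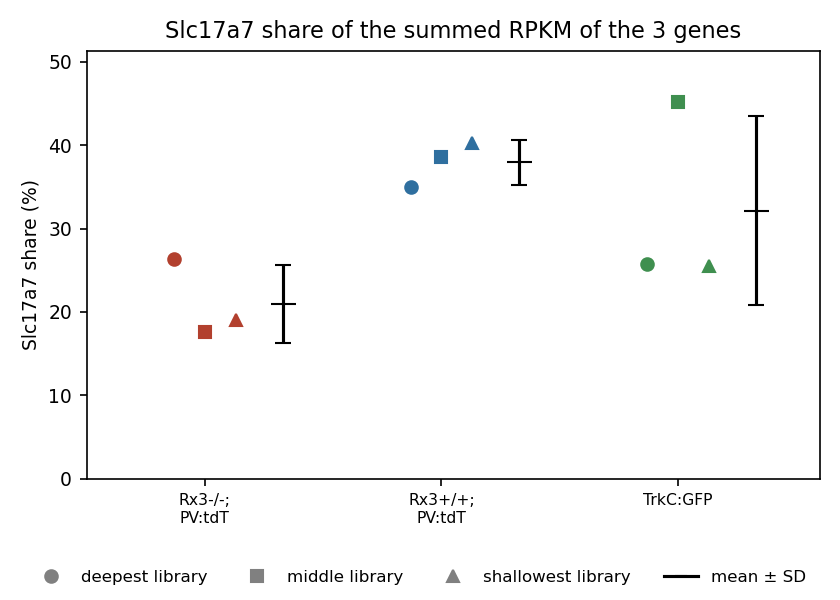
Slc17a7 as a percentage of the summed RPKM of Slc17a6, Slc17a7 and Slc17a8 in each library (vertical axis, linear, from 0), by group and depth rank, with the mean ± SD beside each group. Mutant PV libraries lie at 17.6% to 26.3% and wild-type PV libraries at 35.0% to 40.2%, and the TrkC:GFP libraries lie at 25.5%, 25.7% and 45.2%.

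The middle TrkC:GFP library stood apart from the other 2 in all 3 transporter genes. It was the highest of them in Slc17a7 (78.0 RPKM) and the lowest in Slc17a6 (93.3 RPKM) and Slc17a8 (1.13 RPKM). Its 7 satellite glia and Schwann cell markers summed to 104 CPM, against 508 CPM in the deepest and 335 CPM in the shallowest TrkC:GFP library. The same sum was 206, 190 and 104 CPM in mutant PV and 296, 207 and 191 CPM in wild-type PV libraries. In the middle TrkC:GFP library the 7 nociceptor markers summed to 119 CPM, against 285 CPM in the deepest and 253 CPM in the shallowest. The 6 RA-LTMR markers summed to 320 CPM in the middle library, against 302 CPM in the deepest and 230 CPM in the shallowest. The parts of glial RNA and of neuron makeup in the spread of the transporter genes were not tested.

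Slc17a8 was low in each group and about 3-fold higher in TrkC:GFP neurons. It had 63, 20 and 8 reads in mutant PV, 40, 32 and 32 reads in wild-type PV, and 139, 56 and 78 reads in TrkC:GFP libraries. These are 1.04, 0.348 and 0.376 RPKM in mutant PV, 0.617, 0.558 and 0.587 RPKM in wild-type PV, and 2.41, 1.13 and 2.13 RPKM in TrkC:GFP libraries. The TrkC:GFP libraries lay above all PV libraries (the libraries of wild-type PV and TrkC:GFP did not overlap for 25.1% of 13951 genes, and those of mutant PV and TrkC:GFP for 33.8%), with a small gap between the middle TrkC:GFP and the deepest mutant PV library. The means were 0.588 ± 0.391 RPKM in mutant PV, 0.587 ± 0.0295 RPKM in wild-type PV and 1.89 ± 0.674 RPKM in TrkC:GFP neurons (SD, n = 3 each). An exact 95% Poisson interval, which covers counting error only, runs from 3.5 to 15.8 reads for the 8 reads of the shallowest mutant PV library and from 48.4 to 80.6 reads for the 63 of the deepest. The RPKM of Slc17a6 exceeded that of Slc17a8 by a factor of 99.4 to 353 in mutant PV, 181 to 199 in wild-type PV and 51.0 to 82.8 in TrkC:GFP libraries.

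Slc17a8 was lower in mutant PV than in TrkC:GFP neurons. Mutant PV samples were taken on postnatal days 0 to 3 and TrkC:GFP samples on days 1 to 6. Age, Runx3 genotype, reporter and labelled cell types cannot be told apart in this comparison. In the authors' deposited table the log2 fold change of TrkC:GFP over mutant PV was 1.60, a fold of 3.02, with an edgeR adjusted p of 0.0231. With limma on the recovered reads the difference was 1.60 ± 0.40 (SE), with a 95% interval of 0.73 to 2.46 and an adjusted p of 0.013. The limma call was lost without the deepest TrkC:GFP library (1.39, adjusted p 0.062) and without the shallowest one (1.48, adjusted p 0.053). Without both deeper mutant PV libraries the difference was 1.98 (limma adjusted p 0.0095), with 1 mutant PV library of 8 reads left, which the fit assumes to vary like the other groups. Between mutant and wild-type PV neurons Slc17a8 was not called: the authors' deposited log2 fold change of wild-type PV over mutant PV was -0.06 with an edgeR adjusted p of 1. The limma interval for that difference was wide, from -0.73 to 1.00.

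Slc17a8 was also lower in wild-type PV than in TrkC:GFP neurons in the authors' deposited table, at a log2 fold change of -1.65 for wild-type PV over TrkC:GFP, with an edgeR adjusted p of 2.5e-04 and the authors' flag, which 0.712% of all genes carried. It was the only transporter gene called there, where 2.78% of all genes were called. With limma the difference was -1.46 ± 0.40 (SE), with a 95% interval of -2.32 to -0.59. Its unadjusted limma p was 0.0031, its limma adjusted p was 0.18, and limma called 0.215% of 13951 genes in this comparison, so the call rests on the authors' test. For TrkC:GFP over both PV groups joined, the authors' deposited log2 fold change was 1.63 with an edgeR adjusted p of 0.0344, and 0.456% of all genes were called. That comparison shares its TrkC:GFP samples with the pairwise ones. Wild-type PV samples were taken on postnatal days 3 to 6 and TrkC:GFP samples on days 1 to 6. Age, reporter and labelled cell types cannot be told apart between these 2 groups.

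Beside Slc17a8, the 5 measured C-LTMR markers did not move as 1 group. Fam19a4, whose protein is a secreted TAFA family member made by C-LTMRs, had 1.48, 1.56 and 5.99 CPM in mutant PV, 4.88, 4.11 and 6.31 CPM in wild-type PV, and 31.3, 10.9 and 28.5 CPM in TrkC:GFP libraries. As with Slc17a8, its lowest TrkC:GFP value was in the middle library. Th, the rate-limiting enzyme of catecholamine synthesis and a defining C-LTMR marker, had 5.45, 8.54 and 1.11 CPM in mutant PV, 1.75, 0.658 and 0.432 CPM in wild-type PV, and 0.573, 0.475 and 0 CPM in TrkC:GFP libraries. The 2 high Th values were in the mutant PV libraries that held Umod reads, while the shallowest mutant PV library lay below the deepest wild-type PV library. The part of kidney RNA in the Th values was not tested. The wild-type PV and TrkC:GFP values of Th overlapped, with an edgeR adjusted p of 0.53 in the authors' deposited table. The summed level of the 5 markers was 441 to 524 CPM in mutant PV, 368 to 453 CPM in wild-type PV and 402 to 484 CPM in TrkC:GFP libraries. Gfra2, also listed as an RA-LTMR marker, gave 426, 312 and 416 CPM of it in mutant PV libraries. Zfp521 gave 333, 237 and 343 CPM of it in TrkC:GFP libraries. The sum therefore mostly follows these 2 genes and not Th or Fam19a4. By the authors' deposited adjusted p, 2 of the 5 were lower and 2 higher in mutant PV than in TrkC:GFP neurons, where 10.1% of all genes were called. The glial sums given above were also highest in the deepest and shallowest TrkC:GFP libraries. Within TrkC:GFP the nociceptor sums were higher in these libraries too. The part of either in the Slc17a8 result was not tested.

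**Figure D3:**
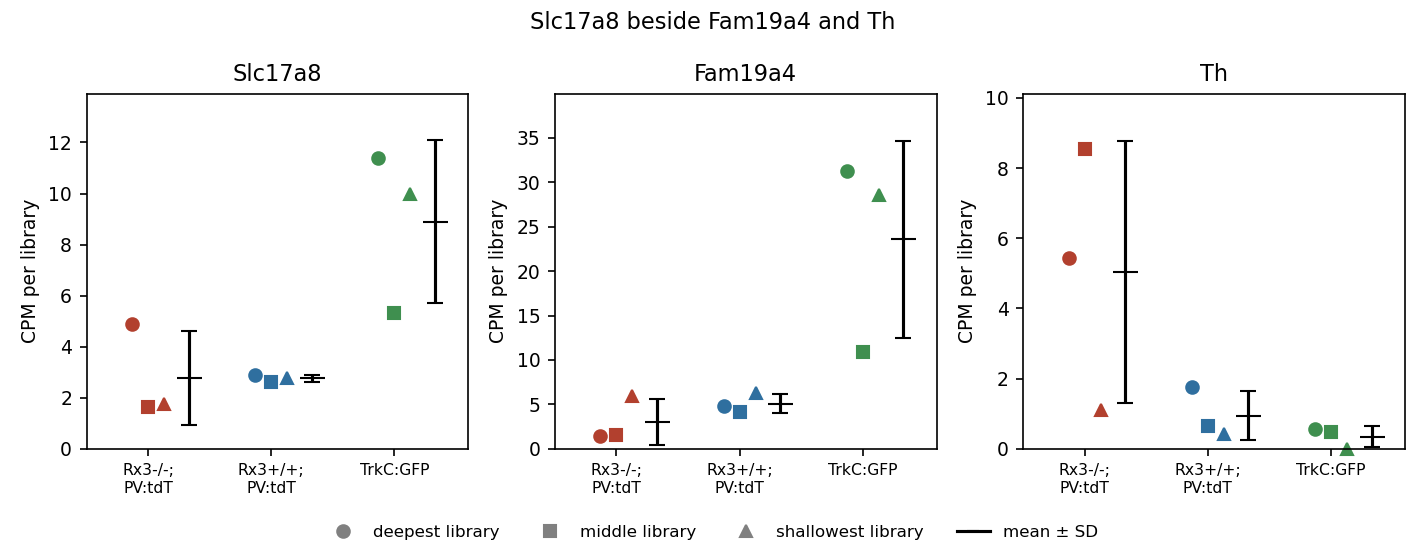
CPM per library (vertical axes, linear, from 0) of Slc17a8, Fam19a4 and Th by group and depth rank, with the mean ± SD beside each group. Slc17a8 and Fam19a4 are highest in TrkC:GFP libraries (Fam19a4 10.9 to 31.3 CPM), while Th is highest in the deeper mutant PV libraries (5.45 and 8.54 CPM), those that also held Umod reads, and lies at 1.11 CPM in the shallowest one, below the deepest wild-type PV library at 1.75 CPM.

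The other genes of glutamate handling were taken as 6 lists with 75 measured genes. By the authors' deposited adjusted p, 15 genes were called between mutant PV and TrkC:GFP neurons, 9 higher and 6 lower in TrkC:GFP. Between mutant and wild-type PV neurons 24 were called, 15 higher and 9 lower in wild-type PV, and between wild-type PV and TrkC:GFP 1 was called. The shares of all genes called were 10.1%, 16.4% and 2.78% in these comparisons. In this last comparison limma called 1 of the 75 genes, and 7 had an unadjusted edgeR p under 0.05 in the authors' deposited table. None of the 7 was in the lists of other SLC17 genes and VGLUT1-binding proteins. The share of all genes under that unadjusted threshold was not computed, so the 7 cannot be set against it. The median log2 fold change of the 75 genes was 0.05, 0.00 and 0.00 in the 3 comparisons, and that of all genes was 0.00, 0.00 and -0.03. All values in the next paragraphs are the authors' deposited log2 fold changes, and a positive one means lower in mutant PV neurons unless another direction is named.

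Among 16 genes of glutamate synthesis and breakdown, 1 was lower and 1 higher in mutant PV than in TrkC:GFP neurons, and 4 were lower and 1 higher in mutant than in wild-type PV neurons, where 10.1% and 16.4% of all genes were called. Got1, the cytosolic aspartate aminotransferase that interconverts glutamate and oxaloacetate, had 231, 180 and 197 CPM in mutant PV, 507, 563 and 525 CPM in wild-type PV, and 448, 552 and 347 CPM in TrkC:GFP libraries. It fell in mutant PV neurons in the authors' deposited tables, at 1.39 for wild-type PV over mutant PV (edgeR adjusted p 1.1e-14) and 1.15 for TrkC:GFP over mutant PV (edgeR adjusted p 3.9e-06). Glul, the glutamine synthetase, moved the other way, with 101, 67.5 and 103 CPM in mutant PV, 33.9, 28.9 and 33.0 CPM in wild-type PV, and 47.0, 29.3 and 43.4 CPM in TrkC:GFP libraries. Its authors' deposited values were -1.50 for wild-type PV over mutant PV (edgeR adjusted p 1.2e-10) and -1.18 for TrkC:GFP over mutant PV (edgeR adjusted p 8.8e-05). Glul is also known as an astrocyte and satellite glia gene. The mitochondrial enzymes Glud1 and Got2 fell in mutant relative to wild-type PV neurons at 0.57 and 0.62 in the authors' deposited table.

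Among 13 plasma membrane carriers of glutamine and glutamate, 4 were lower and 3 higher in mutant PV than in TrkC:GFP neurons, and 3 were lower and 4 higher in mutant than in wild-type PV neurons, where 10.1% and 16.4% of all genes were called. Slc38a1, a system A glutamine carrier, had 166, 206 and 202 CPM in mutant PV, 409, 422 and 444 CPM in wild-type PV, and 403, 383 and 400 CPM in TrkC:GFP libraries. It fell in mutant PV neurons in the authors' deposited tables at 1.15 against wild-type PV (edgeR adjusted p 2.1e-10) and 1.05 against TrkC:GFP (edgeR adjusted p 8.4e-07). Its paralog Slc38a2 rose, at -0.47 and -0.66 for the same 2 directions. The neuronal glutamate uptake carrier Slc1a1 fell in mutant PV neurons at 0.95 against wild-type PV and 1.21 against TrkC:GFP in the authors' deposited tables. Slc1a3, the glial uptake carrier GLAST, had 11, 3 and 0 reads in mutant PV, 40, 34 and 37 reads in wild-type PV, and 35, 38 and 24 reads in TrkC:GFP libraries. Its authors' deposited log2 fold changes were 2.45 against wild-type PV (edgeR adjusted p 3.1e-04) and 2.57 against TrkC:GFP (edgeR adjusted p 0.0011). The neutral amino acid carrier Slc1a5 rose in mutant PV neurons at -1.30 against wild-type PV and -1.37 against TrkC:GFP in the authors' deposited tables. Slc1a4 and Slc38a7 rose at -0.67 and -0.80 against wild-type PV.

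Slc7a11, the cystine and glutamate exchanger, was the 1 listed gene called between the groups with intact Runx3. It had 23.4, 25.6 and 18.4 CPM in mutant PV, 25.9, 28.0 and 25.7 CPM in wild-type PV, and 2.54, 3.89 and 0.900 CPM in TrkC:GFP libraries. Both PV groups lay far above TrkC:GFP. The authors' deposited log2 fold change of wild-type PV over TrkC:GFP was 3.34 (edgeR adjusted p 7.9e-24) and that of TrkC:GFP over mutant PV was -3.12 (edgeR adjusted p 2.2e-11). Slc7a11 was therefore low in the same group in which Slc17a8 was high.

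The next lists hold the vesicle machinery on which VGLUTs depend. Of 21 proton pump subunits and chloride channels, 2 were called between mutant PV and TrkC:GFP, 4 between mutant and wild-type PV, and 0 between wild-type PV and TrkC:GFP in the authors' deposited tables, where 10.1%, 16.4% and 2.78% of all genes were called. The pump subunit gene Atp6v1c1 fell in mutant PV neurons at 0.72 against wild-type PV (edgeR adjusted p 0.003) and 0.69 against TrkC:GFP (edgeR adjusted p 0.02). Atp6v1g2, a brain-enriched pump subunit, fell at 0.97 and 0.98 for the same 2 directions. The endosomal chloride transporter Clcn5 fell at 0.59 and the pump subunit Atp6v0b rose at -0.58 against wild-type PV. The 12 genes whose proteins bind VGLUT1 or act in its endocytosis had 3 calls between mutant PV and TrkC:GFP, 4 between mutant and wild-type PV, and 0 between wild-type PV and TrkC:GFP, against the same shares of all genes. Dnm1, the neuronal dynamin that pinches off vesicles, fell in mutant PV neurons at 0.89 and 0.80, and the ubiquitin ligase Itch at 0.99 and 0.72, in the authors' deposited tables against wild-type PV and TrkC:GFP. Sh3gl2 (endophilin A1) fell at 0.57 and the adaptor subunit Ap2a2 rose at -0.55 against wild-type PV, while Sh3gl3 rose at -1.16 against TrkC:GFP.

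Of the 7 other vesicular transporters, 1 was called between mutant PV and TrkC:GFP, 3 between mutant and wild-type PV, and 0 between wild-type PV and TrkC:GFP in the authors' deposited tables, where 10.1%, 16.4% and 2.78% of all genes were called. The vesicle glycoproteins Sv2b and Sv2a fell in mutant relative to wild-type PV neurons at 0.76 (edgeR adjusted p 7.4e-05) and 0.64 (edgeR adjusted p 0.04). Slc18a3, the vesicular acetylcholine transporter, had 124, 71 and 0 reads in mutant PV, 3, 0 and 0 reads in wild-type PV, and 0, 0 and 0 reads in TrkC:GFP libraries. It was called in the authors' deposited tables against wild-type PV (edgeR adjusted p 6.8e-05) and against TrkC:GFP (edgeR adjusted p 2.3e-05). Its mutant PV reads were in the 2 libraries that also held Umod reads. Slc32a1, the vesicular GABA and glycine transporter, had 0 reads in all 9 libraries. Of the 6 other SLC17 family genes, the sialic acid carrier Slc17a5 was the most abundant, with 14.4 to 19.0 CPM in mutant PV, 10.9 to 17.8 CPM in wild-type PV and 13.9 to 16.3 CPM in TrkC:GFP libraries. The kidney phosphate transporter Slc17a1, the 1 called gene of that list, had 9, 5 and 0 reads in mutant PV and no read in wild-type PV or TrkC:GFP libraries (the authors' deposited edgeR adjusted p was 0.031 against wild-type PV). The Slc17a1 reads were also in the 2 mutant PV libraries with Umod reads. Umod was chosen after its values were seen, so this overlap is a description only. The part of kidney RNA in the Slc17a1 and Slc18a3 reads was not tested.

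**Figure D4:**
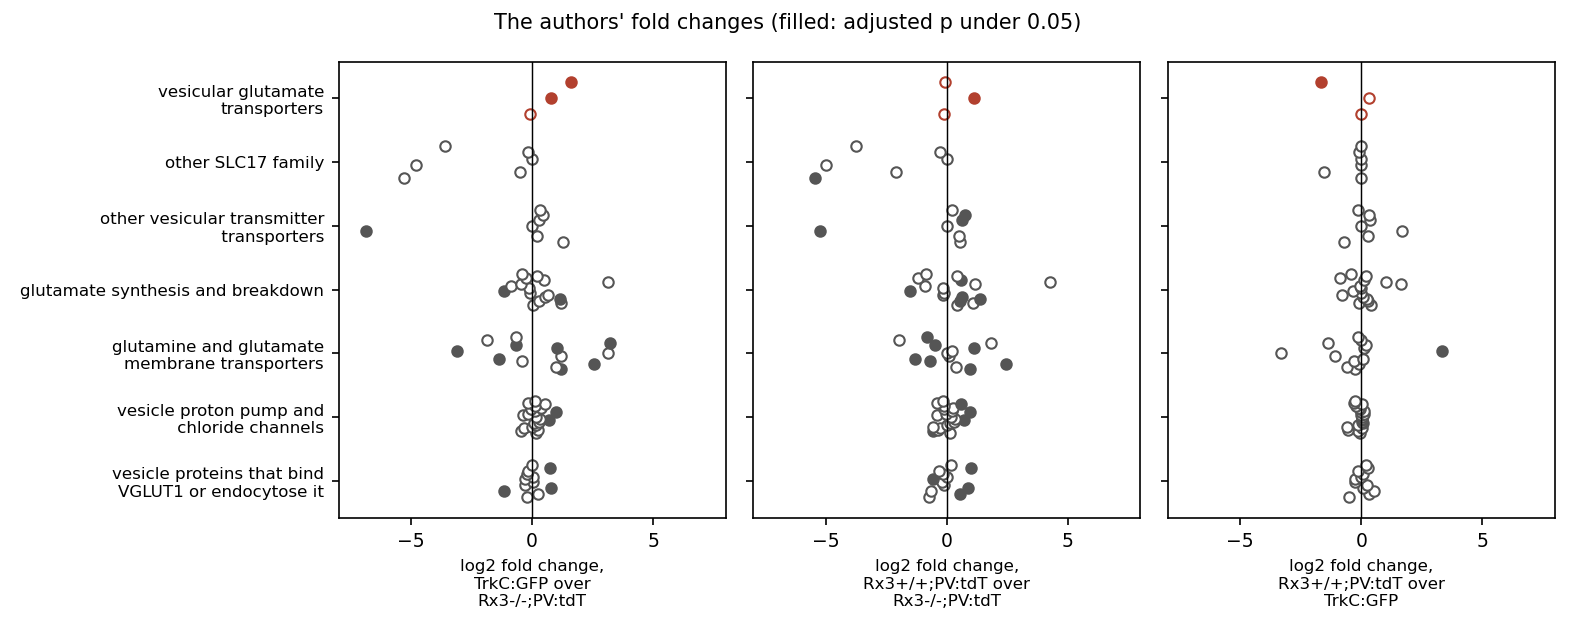
The authors' deposited log2 fold changes (horizontal axes, direction named under each panel) of the vesicular glutamate transporters (red) and of 6 lists of related genes (grey), 1 point per gene, filled where the adjusted p is under 0.05. Of the 75 listed genes 15, 24 and 1 are called from left to right, where 10.1%, 16.4% and 2.78% of all genes are.

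The genes whose pattern over the 3 groups was nearest to each transporter were found by the Euclidean distance of centred log2(RPKM + 0.1) values among 12428 genes with a mean of at least 1 RPKM. With 3 groups, likeness of this kind is common. Slc17a6 had 801 genes within a distance of 0.1, with Srek1 (12.4 RPKM in mutant PV, 11.6 in wild-type PV and 11.7 in TrkC:GFP neurons), Gpt2 and Hmgb3 nearest. Slc17a7 had 57 genes within that distance, with Nbn (5.69 RPKM in mutant PV, 12.4 in wild-type PV and 9.89 in TrkC:GFP neurons), Reep6 and Nudt7 nearest. Slc17a8 had none within that distance, and its nearest genes were Tspan8 at 0.11 (7.43 RPKM in mutant PV, 7.31 in wild-type PV and 19.2 in TrkC:GFP neurons), Rpl3 and Acp1.

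**Figure D5:**
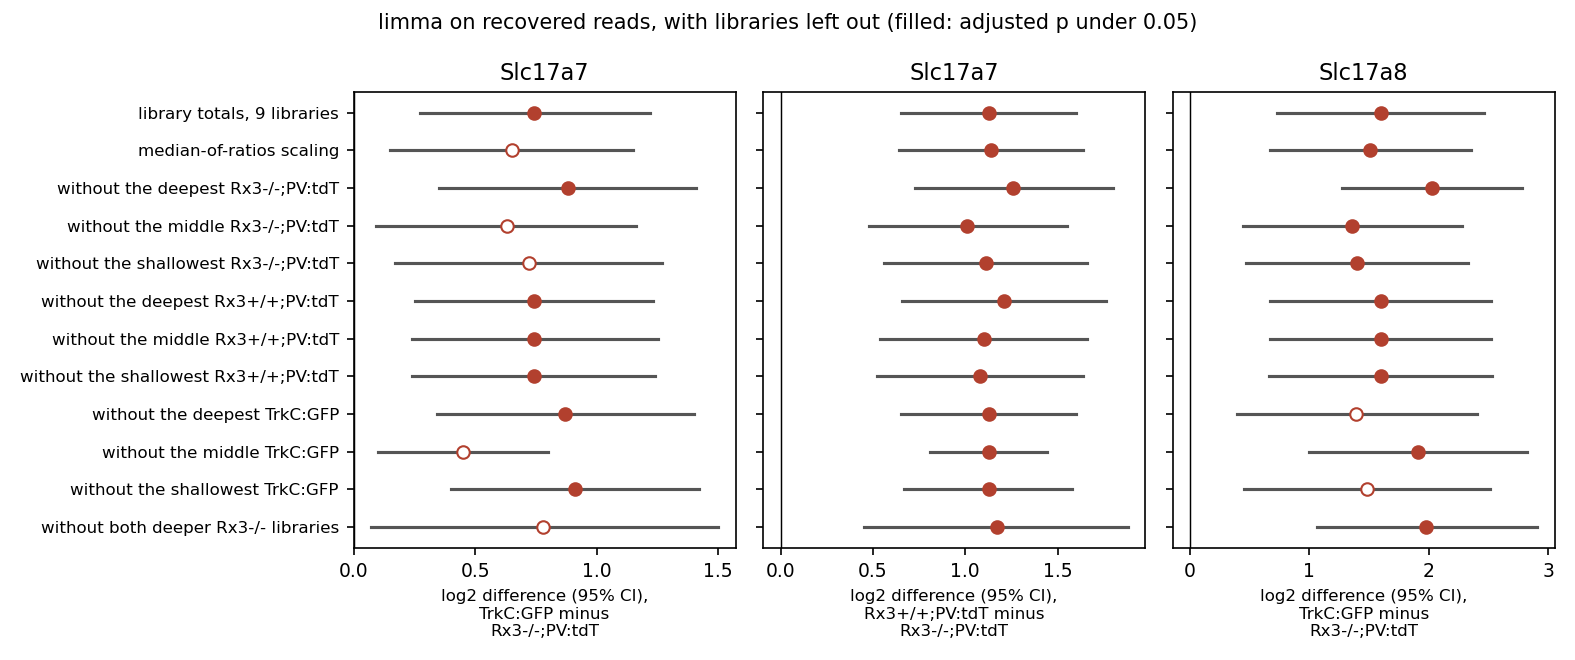
Log2 differences with 95% intervals (horizontal axes, direction named under each panel) from limma on recovered reads for Slc17a7 and Slc17a8, with all libraries, another scaling, each library left out and both deeper mutant PV libraries left out (the 1 remaining is assumed to vary like the other groups), filled where the adjusted p is under 0.05. Slc17a7 against wild-type PV is called under each setting drawn, while in the other 2 panels the call is lost under 5 settings and 2 settings from left to right.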

How the data were processed

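Sequencing libraries were single-end and poly-A selected, made from amplified cDNA, per the labels' protocols. The submitters' processing notes name mm10 and edgeR. The aligner, counter, versions and kind of edgeR test were not given in the sources used here. In 5 comparison tables the authors deposited, for each of 23038 genes, a p-value with its adjusted value, log2 values (fold change, mean CPM), a flag of unstated rule, and 1 RPKM per group. The RPKM column of TrkC:GFP is named Rx3 in the deposited tables and was assigned by its comparison. Genes with a deposited adjusted p under 0.05 were called. No table of counts per sample was used, so the authors' test stands in for a fit of counts.

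The deposited RPKM equals the mean over 3 libraries of (reads + 1) scaled to gene length and library total. The whole reads of each library, their totals and each gene's counted length were solved from its 3 RPKM values by lattice reduction (sympy 1.14.0), which gave whole reads for 23038 of 23038 genes within 0.75 units of the last deposited digit. In simulated data 99.91% of genes with under 8000 mean reads were recovered exactly, and 66.22% above that, so the 150 genes above it have no library values. The RPKM and CPM per library leave out the added read. The limma fits (limma 3.58.1 in R 4.3.3, chosen after seeing the data) used log2(CPM + 0.5) for genes with a mean CPM of at least 0.5 and all 3 groups in 1 fit. Mutant against wild-type PV was simulated over 14094 genes, with an assumed dispersion of 0.1 and 200 genes changed. There limma called 18 of 100 genes changed 2-fold, 93 of 100 changed 4-fold and 4 of 13894 unchanged ones. In the real comparison limma called 26.2% of 13951 genes, so these rates need not hold for it. P-values measure the spread between samples, 2 of which are single animals, and amplified reads are not independent molecules.

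Named genes were the 3 transporters, up to 3 called genes per list, direction and comparison by smallest adjusted p, and the 3 nearest genes by pattern. Slc17a5, Slc32a1 and Umod were added after their values were seen. The members and all lists were chosen with earlier results of these data known. Clcn4 was listed but not measured under that name. Alternatives were other thresholds, pseudocounts, a filter on low RPKM, scaling and left-out libraries.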

Additional observations from a re-analysis of the deposited data

How the results depend on the processing

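No paired analysis was possible because the recovered libraries carry no replicate number. Of the 3 transporter genes, 2 were called between mutant PV and TrkC:GFP neurons. The count was 0 at an adjusted p under 0.01 and by the authors' flag, and 1 with a fold change of at least 2-fold also asked for, with median-of-ratios scaling in limma and without both deeper mutant PV libraries. It was 1 to 2 in limma with each library left out. Between mutant and wild-type PV neurons it was 1 under each alternative run. Between wild-type PV and TrkC:GFP neurons the 1 call became 0 in limma with all libraries, with median-of-ratios scaling, without both deeper mutant PV libraries and with each library left out, a range of 0 to 0. Slc17a8 had an unadjusted limma p of 0.0031 there. Of the 75 listed genes, the 15 calls between mutant PV and TrkC:GFP became 6 by the authors' flag. With limma they were 17 with all libraries, 14 without both deeper mutant PV libraries and 12 to 19 with each library left out. The 24 calls between mutant and wild-type PV became 12 at an adjusted p under 0.01, 7 with the fold also asked for, and 4 by the authors' flag. With limma they were 25 with all libraries, 15 without both deeper mutant PV libraries (1 left, assumed to vary like the other groups) and 11 to 25 with each library left out, with 14, 11 and 13 when the deepest, middle or shallowest wild-type PV library was left out. The cause of these changes was not tested. Both transporters called between mutant PV and TrkC:GFP had an unadjusted deposited p of 0.0024 (Slc17a7) and 0.0019 (Slc17a8). The Slc17a8 log2 ratio of wild-type PV over TrkC:GFP, -1.51 with a pseudocount of 0.1, was -0.86 with a pseudocount of 1, which shrinks low values by construction. Median-of-ratios scaling moved the median limma log2 difference of all genes for TrkC:GFP minus mutant PV to 0.02, against 0.11 with library totals. Slc17a8 had the fewest reads of the 3 transporter genes, at 8 to 139 per library, and so the largest relative counting error.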
